A study of Mus musculus with 9 samples.

Results

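The surface antigens by which blood progenitors are sorted in the mouse were followed as messenger RNA in the sorted cells. The genes were Ly6a (Sca1), Cd34, Fcgr2b and Fcgr3 (the low-affinity Fcγ receptors II and III), Cd48, Slamf1 (CD150) and Thy1, and every probe set whose single annotated gene symbol was one of these was taken. This gave 12 of the 45101 probe sets on the array and covered 6 of the 7 genes: 5 probe sets for Fcgr2b, 3 for Slamf1 and 1 each for Cd34, Fcgr3, Cd48 and Thy1. For Ly6a, 0 probe sets carried the symbol, and it was not analysed here.

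Gene expression was measured on 9 arrays, 3 per group, with RNA from bone marrow of mice 6 weeks old. LSK cells, which are lineage-negative and positive for cKit and Sca1, came from wild-type mice (Ncstn flox/flox). Granulocyte-monocyte progenitors (GMP), which are lineage-negative, cKit-positive, Sca1-negative and positive for CD34 and FcγRII/III, came from wild-type mice (Ncstn flox/flox) and from nicastrin knockouts (Ncstn flox/flox Mx1-cre+). Nicastrin belongs to γ-secretase, a protease complex in the membrane whose substrates include the Notch receptors. All mice were given polyIC, which mimics viral double-stranded RNA and raises interferon, 3 times on alternate days from 14 days of age, at 20 mcg per g of body weight, and the cells were taken 4 weeks later. Mx1-cre is driven by an interferon-responsive promoter that is active in many cell types, and only the knockouts carried it, so the transgene and the deletion cannot be told apart. From each sample 5 ng of RNA was amplified before labelling. The labels name the source of each array as a mouse and do not say whether mice were pooled.

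Sorting gates read protein on the cell surface. In the stem cell compartment Sca1 is high, CD150 is held by the long-term repopulating cells, and CD48 appears as these become multipotent progenitors. On entry to the myeloid lineage Sca1 is lost, CD34 stays on the cells for a time, and the Fcγ receptors rise, which is why the pair CD34 and FcγRII/III marks the granulocyte-monocyte progenitor. Thy1 is known mainly as a T cell antigen in the mouse and is present at low density on stem cells.

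The values are log2 intensities, and differences are log2 fold changes with their standard error (SE) from 1 limma fit of all 9 arrays, and a probe set was called where the p-value, adjusted by Benjamini-Hochberg across all 45037 tested, was under 0.05. Nicastrin RNA followed the labels in 1 of its 2 probe sets. Probe set 1418570_at of Ncstn read 8.99 to 9.13 in LSK, 9.25 to 9.31 in wild-type GMP and 7.76 to 7.79 in knockout GMP. It stayed above background on all 3 knockout arrays. The other, 1444532_at, overlapped between the genotypes (log2 fold change of knockout against wild-type GMP 0.13, adjusted p = 0.753). Median intensities were 98.3 to 103 on LSK arrays and 65.3 to 68.6 on GMP arrays, and the median log2 fold change of all probe sets was -0.20 for wild-type GMP against LSK, which quantile normalization moved to 0.06 and centring on the 75th percentile to 0.15. In 4 arrays, wild-type GMP 2 and 3 and knockout GMP 2 and 3, the Xist and Y-linked transcripts went against the sex in the labels, and by these transcripts all 3 knockout arrays were female beside 1 of 3 in each of the other groups. RNA quality was read from Actb as the 3′ control probe set over the 5′ one, whose log2 ratio was 0.75 ± 0.11 (SD, n = 3) in LSK, 0.58 ± 0.11 in wild-type GMP and 0.90 ± 0.14 in knockout GMP. The part of sex and of RNA quality in the differences below was not tested beyond the fits that hold them as covariates.

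**Figure D1:**
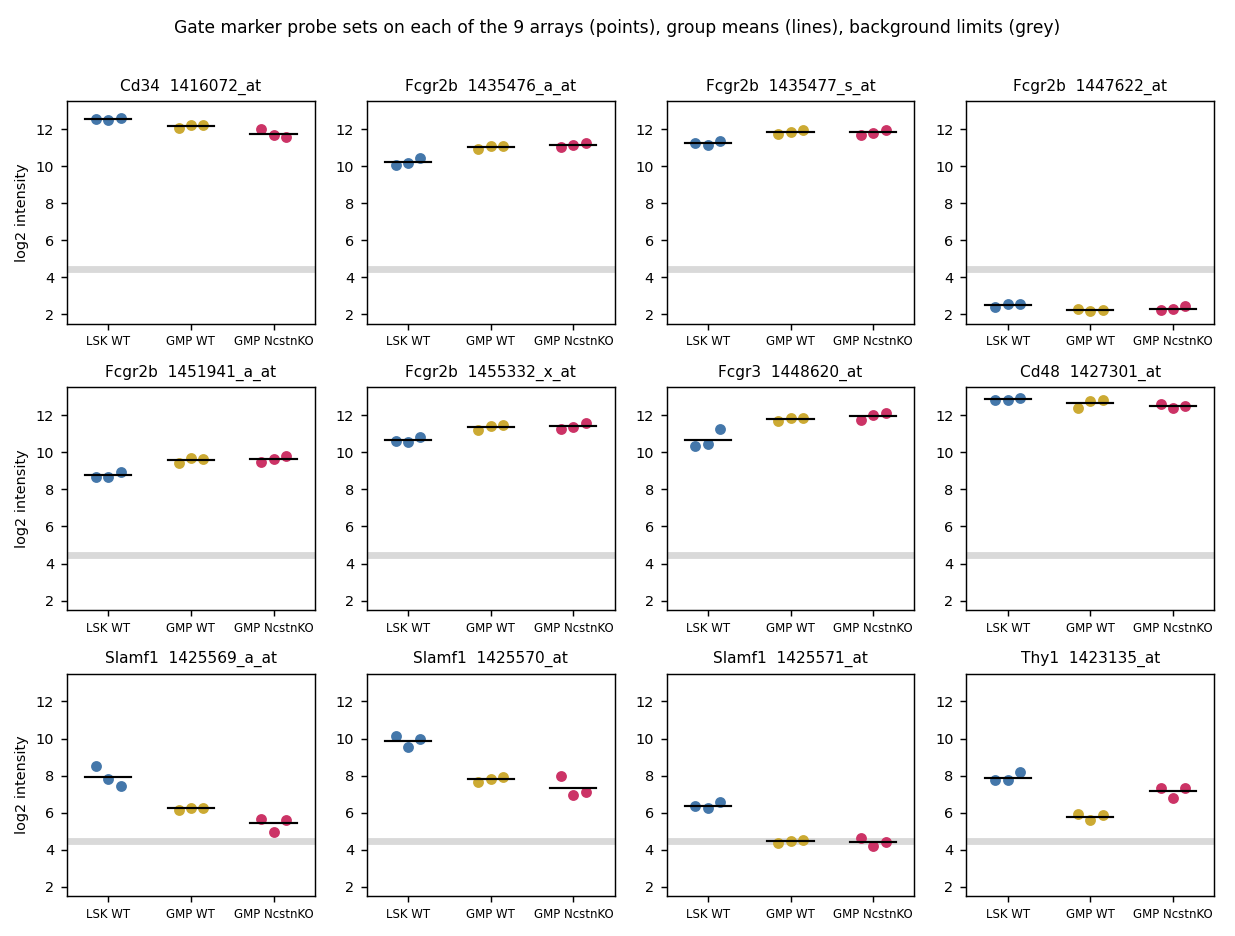
Log2 intensity of the 12 probe sets on each array (points, 3 arrays per group, arrays 1 to 3 from left to right) with the group mean as a line; the grey band spans the 9 arrays' background limits, 4.30 to 4.57. Knockout and wild-type GMP do not overlap in Thy1 (0.88 between the nearest arrays), Slamf1 1425569_a_at (0.49) and Cd34 (0.05). Fcgr2b probe set 1447622_at lies below the band on all 9 arrays.

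The promoters of Fcgr2b, Fcgr3 and Slamf1 are shown because the first pair rose together in GMP while Slamf1 fell. The stretches run from 250 bases before to 50 bases after the annotated start, from RefSeq on GRCm38.p6, 5′ to 3′ on the strand of each gene. Fcgr2b lies on chr1:170976022-170976321 (minus strand), Fcgr3 on chr1:171059354-171059653 (minus strand, the first of 2 listed starts) and Slamf1 on chr1:171766882-171767181 (plus strand). Capitals mark a match on either strand to GAGGAA, the core preferred by the myeloid ETS factor PU.1.
Fcgr2b promoter: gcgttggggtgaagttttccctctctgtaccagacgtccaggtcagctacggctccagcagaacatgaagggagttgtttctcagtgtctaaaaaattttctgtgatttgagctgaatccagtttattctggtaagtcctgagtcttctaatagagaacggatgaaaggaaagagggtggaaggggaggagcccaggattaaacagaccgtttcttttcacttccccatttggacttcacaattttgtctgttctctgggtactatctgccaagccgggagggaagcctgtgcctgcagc
Fcgr3 promoter: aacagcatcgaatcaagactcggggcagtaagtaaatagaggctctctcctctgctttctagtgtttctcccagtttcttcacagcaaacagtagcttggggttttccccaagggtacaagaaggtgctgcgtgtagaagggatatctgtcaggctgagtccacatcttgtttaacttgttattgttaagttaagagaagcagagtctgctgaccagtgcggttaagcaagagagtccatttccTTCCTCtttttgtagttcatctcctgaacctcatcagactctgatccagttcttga
Slamf1 promoter: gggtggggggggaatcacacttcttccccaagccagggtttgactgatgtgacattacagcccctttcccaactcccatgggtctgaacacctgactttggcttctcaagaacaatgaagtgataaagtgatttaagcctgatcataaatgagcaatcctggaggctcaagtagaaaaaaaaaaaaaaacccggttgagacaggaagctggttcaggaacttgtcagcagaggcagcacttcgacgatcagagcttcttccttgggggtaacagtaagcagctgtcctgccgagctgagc
The core was found 1 time in the Fcgr3 stretch, on the opposite strand, and 0 times in the other two. It occurred in 28.3% of the 32851 promoters of this length. The RUNX core TGTGGT, held by 16.8% of promoters, and the GATA core AGATAA, held by 11.2%, were found 0 times in all 3 stretches. A match or its absence describes these letters in this window and no more.

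Wild-type GMP against LSK asks whether the RNA of the markers differs between the gates. The Fcγ receptors were higher and Slamf1, Thy1 and Cd34 lower in GMP. GMP were sorted as positive for FcγRII/III, which the LSK gate does not use, so the Fcγ receptor values are not independent of the sort. Fcgr3 was 2.15-fold higher, Slamf1 was 3.24-fold to 4.23-fold lower over its 3 probe sets, Thy1 4.29-fold lower and Cd34 1.32-fold lower. These folds are on the deposited scale, on which LSK and GMP arrays had different medians. Quantile normalization moved the log2 fold change of Slamf1 1425569_a_at from -1.70 to -1.14 and that of Thy1 from -2.10 to -1.54. It moved Fcgr3 from 1.10 to 1.25 and Fcgr2b 1451941_a_at from 0.83 to 1.23, and these calls were kept. Of the 12 probe sets, 5 were called higher and 5 lower, beside 6.04% and 28.8% of all probe sets. Those of Fcgr2b and of Slamf1 are repeat readings of 1 gene each. With 1 probe set per gene, 5 of 6 were called in either direction, beside 6910 of 18193 genes. Groups did not overlap in 12 of 12, the probe set below background included, beside 51.8% of all probe sets. Leaving out the probe set below background, the median of the 11 log2 fold changes was -0.21, close to the -0.20 of all probe sets, and they ran from -2.10 to 1.10.

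Fcgr3 encodes FcγRIII, the activating receptor that signals through the γ chain encoded by Fcer1g. Its probe set 1448620_at read 10.36, 10.46 and 11.25 on the LSK arrays, 11.68, 11.84 and 11.86 on the wild-type GMP arrays, and 11.74, 12.03 and 12.15 on the knockout arrays. LSK array 3 stood 0.79 above the next LSK array but below all GMP arrays. The log2 fold change of wild-type GMP against LSK was 1.10 (SE 0.22, adjusted p = 0.00627).

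Fcgr2b encodes FcγRIIB, the inhibitory receptor that carries an ITIM motif and recruits the phosphatase SHIP1, the product of Inpp5d. Probe set 1435477_s_at read 11.25, 11.16 and 11.34 in LSK, 11.76, 11.83 and 11.93 in wild-type GMP, and 11.70, 11.82 and 11.94 in knockout GMP. All 6 GMP arrays lay above all 3 LSK arrays, and the 2 genotypes overlapped. The log2 fold change of wild-type GMP against LSK was 0.59 (SE 0.10, adjusted p = 0.00271). Probe set 1435476_a_at read 10.06, 10.15 and 10.43 in LSK and 10.95 to 11.10 in wild-type GMP, a log2 fold change of 0.83 (SE 0.12, adjusted p = 0.00112). The other two bright probe sets gave 0.83 for 1451941_a_at and 0.71 for 1455332_x_at, both called. Across the 9 arrays the log2 intensities of these 4 probe sets correlated at 0.97 to 0.99, as a description of arrays that share groups and scaling. The fifth, 1447622_at, read 2.20 to 2.55 and lay below the background limit on all 9 arrays, so no fold is given. Fcgr2b and Fcgr3 are close paralogs whose extracellular parts are alike, and a probe set whose name ends in _s_at or _x_at can read related transcripts, so how the signal divides between the 2 genes is uncertain.

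Cd34 encodes the sialomucin that the GMP gate requires and the LSK gate does not use. Probe set 1416072_at read 12.57, 12.49 and 12.62 in LSK, 12.04, 12.23 and 12.21 in wild-type GMP, and 11.99, 11.69 and 11.57 in knockout GMP. The order was LSK, wild-type GMP, knockout GMP, with no overlap between neighbours. The log2 fold change of wild-type GMP against LSK was -0.40 (SE 0.12, adjusted p = 0.0345). Centring on the 75th percentile took it to -0.05 (adjusted p = 0.774), and leaving out any of the 6 arrays of these groups ended the call, with adjusted p of 0.0554 to 0.108. So did the Actb ratio as a covariate (-0.35, adjusted p = 0.144), and 11 of 21 alternative settings kept it. The value was negative on the deposited scale and under both other scalings.

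Slamf1 encodes CD150, a self-ligand receptor that neither gate used. Probe set 1425570_at read 10.12, 9.56 and 9.97 in LSK, 7.67, 7.79 and 7.94 in wild-type GMP, and 7.99, 6.96 and 7.11 in knockout GMP. Probe set 1425569_a_at read 8.53, 7.79 and 7.46 in LSK, 6.17, 6.26 and 6.27 in wild-type GMP, and 5.68, 4.98 and 5.59 in knockout GMP. Both were far lower in GMP with no overlap. The log2 fold changes of wild-type GMP against LSK were -2.08 (SE 0.26, adjusted p = 0.0007) and -1.70 (SE 0.28, adjusted p = 0.00226). Probe set 1425571_at read 6.25 to 6.56 in LSK and 4.38 to 4.55 in wild-type GMP, just above the background limit on all 3 of these arrays, a log2 fold change of -1.92 (SE 0.13, adjusted p = 5.1e-05). Against the highest control probe set as the limit it was above background on 0 GMP arrays, and the fold is then at least 2.67.

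Cd48 encodes the ligand of CD244, present on most blood cells and absent from long-term stem cells. Probe set 1427301_at read 12.84, 12.84 and 12.92 in LSK, 12.37, 12.77 and 12.82 in wild-type GMP, and 12.59, 12.37 and 12.53 in knockout GMP. LSK lay above wild-type GMP by only 0.02 between the nearest arrays. The log2 fold change was -0.21 (95% interval -0.51 to 0.08, adjusted p = 0.238) and was not called. Its direction turned to 0.14 when arrays were centred on the 75th percentile.

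Thy1 encodes a small glycoprotein anchored by glycosylphosphatidylinositol, as Sca1 is. Probe set 1423135_at read 7.76, 7.74 and 8.17 in LSK, 5.91, 5.60 and 5.85 in wild-type GMP, and 7.33, 6.79 and 7.36 in knockout GMP. The 3 groups did not overlap, and the order was LSK, knockout GMP, wild-type GMP. Wild-type GMP against LSK gave a log2 fold change of -2.10 (SE 0.19, adjusted p = 0.000141). In bulk RNA, fewer cells with a transcript and less of it per cell cannot be told apart. With the 4 arrays of mismatched sex left out, 1 array per GMP group remained, the lone array was assumed to vary like the LSK arrays, and 3 of the 12 probe sets stayed called: Thy1, Slamf1 1425570_at and Slamf1 1425571_at.

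**Figure D2:**
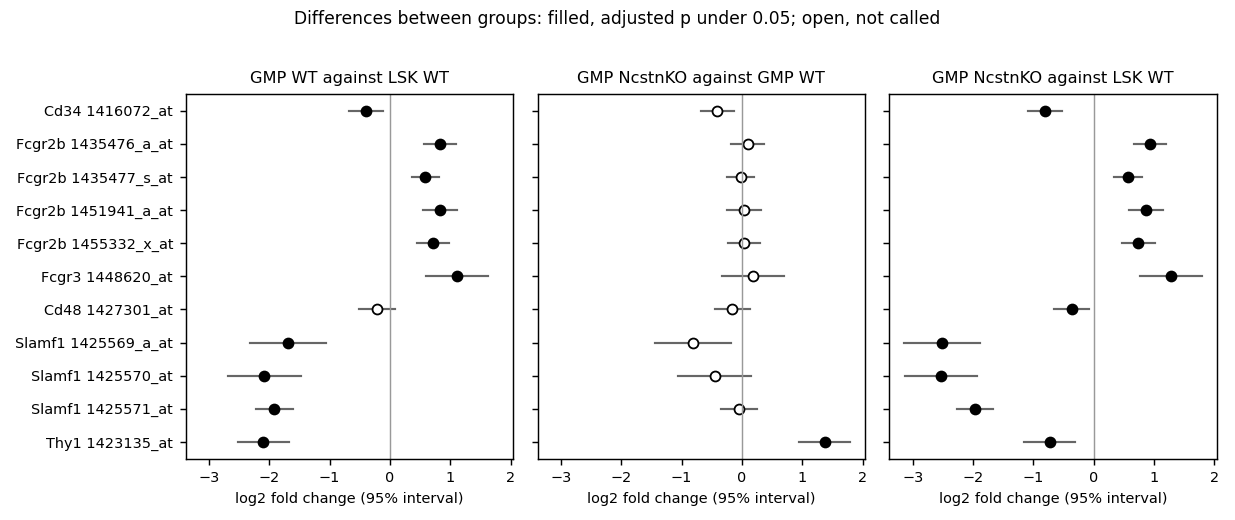
Log2 fold change of 11 probe sets in the 3 comparisons (points) with 95% intervals (lines); filled points have an adjusted p under 0.05, and Fcgr2b 1447622_at, below background, is left out. In the middle panel Thy1 at 1.37 is the filled point, and the Fcgr2b probe sets lie at -0.02 to 0.09.

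In knockout against wild-type GMP, which passed through 1 gate and differ by genotype, Thy1 was the marker that was called: it was 2.59-fold higher without nicastrin. Cd34, Fcgr2b, Fcgr3, Cd48 and Slamf1 were not called in either direction. Of the 12 probe sets, 1 was called higher and 0 lower, beside 0.604% and 1.15% of all probe sets. An unadjusted p under 0.05 was held by 3 of the 12, beside 19.8% of all probe sets. Groups did not overlap in 3 of 12, beside 27.2% of all probe sets, namely Cd34, Slamf1 1425569_a_at and Thy1. The median of the 11 log2 fold changes was -0.02, beside 0.04 for all probe sets.

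For Thy1 the knockout arrays at 6.79 to 7.36 lay at least 0.88 above the wild-type arrays at 5.60 to 5.91. The log2 fold change was 1.37 (SE 0.19, 95% interval 0.95 to 1.79, adjusted p = 0.0312), and it was 1.16 to 1.55 in the 20 alternative settings, of which 7 kept the call. Leaving out any of the 6 GMP arrays, or LSK array 1, ended the call, with adjusted p of 0.0508 to 0.132. It also ended with label sex (adjusted p = 0.115), transcript sex (0.128) or the Actb ratio (0.434) as a covariate, and without the 4 arrays of mismatched sex the value was 1.42 (adjusted p = 0.406).

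T cells and natural killer cells are the cells best known for Thy1, and their other transcripts were read beside it. Of 13 measured genes of that list, 1 was called higher in the knockouts, which was Thy1 itself, and 0 lower, with a median log2 fold change of -0.04. Among all measured genes 0.846% were called higher and 1.46% lower. The summed intensity of the list was 1693 to 1881 in wild-type GMP and 1484 to 1751 in knockout GMP, both below the 3921 to 4511 of LSK. Cd3e, a chain of the T cell receptor complex, read 4.47 to 5.25 in wild-type and 4.61 to 4.79 in knockout GMP. The background limits of the knockout arrays were close to this, at 4.33 to 4.57. Ncr1 was at or below the background limit on all arrays of both GMP groups. Cd3g was so on all knockout arrays, with a mean of 3.84 there and 3.89 in wild-type GMP. The highest member in GMP, Prf1, had a log2 fold change of -0.66 (adjusted p = 0.0603).

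Markers of erythroid cells and macrophages were lower in part. Among all measured genes 1.46% were called lower, and 19.8% of all probe sets had an unadjusted p under 0.05. Of 10 measured erythroid genes 5 were called lower in knockout GMP, 8 had an unadjusted p under 0.05 and the median was -1.51. Their summed intensity was 22580 to 36245 in wild-type and 12873 to 16778 in knockout GMP, with Car2, a carbonic anhydrase, the highest in wild-type and Tfrc, the transferrin receptor, in knockout GMP. Of 11 macrophage genes 2 were called lower and 6 had an unadjusted p under 0.05, with a median of -0.58 and summed intensities of 3334 to 5033 and 3323 to 5561. The part of such cells in the values of Thy1, Cd34 and Kit was not tested.

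The antigens of the gate itself, Cd34 and the Fcγ receptors, were not called, nor were Slamf1 and Cd48, which are not part of it. Fcgr3 gave 0.18 (95% interval -0.33 to 0.69, adjusted p = 0.711). For Fcgr2b the 4 bright probe sets gave -0.02 to 0.09, with intervals reaching from -0.24 to 0.36. Cd34 gave a log2 fold change of -0.41 (95% interval -0.69 to -0.13), with 0.05 between the nearest arrays of the groups, and it was not called (adjusted p = 0.118). Slamf1 gave -0.81 for 1425569_a_at (adjusted p = 0.153) and -0.45 for 1425570_at (adjusted p = 0.386), neither called. Probe set 1425571_at was above the background limit on 1 of 3 knockout arrays and close to it in wild-type GMP, where a further fall could not be read, so its value is not set beside the others. Cd48 gave -0.16 (95% interval -0.45 to 0.14, adjusted p = 0.557).

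Kit, the receptor for stem cell factor that both gates require, is read by 2 probe sets. Probe set 1415900_a_at read 9.08 to 9.62 in LSK, 8.22 to 8.91 in wild-type GMP and 7.63 to 8.15 in knockout GMP, and 1452514_a_at read 11.45 to 11.69, 11.03 to 11.11 and 10.58 to 10.96. Group means stood in the same order as for Cd34, and no groups overlapped. In wild-type GMP against LSK the log2 fold changes were -0.73 (adjusted p = 0.0356) and -0.49 (adjusted p = 0.0145). In knockout against wild-type GMP they were -0.79 (adjusted p = 0.107) and -0.26 (adjusted p = 0.272), neither called.

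In knockout GMP against LSK, where gate and genotype differ together, 5 probe sets were called higher and 6 lower, beside 11.4% and 32.1% of all probe sets. With 1 probe set per gene, 6 of 6 were called in either direction, beside 8523 of 18193 genes. Groups did not overlap in 11 of 12, beside 54.3%. This comparison shares its LSK arrays with the first and its knockout arrays with the second, so it adds no independent evidence. Fcgr3 was 2.43-fold higher (log2 fold change 1.28, adjusted p = 0.00219), and Slamf1 1425570_at was 5.79-fold lower (-2.53, adjusted p = 0.000179). Cd34 had a log2 fold change of -0.81 (adjusted p = 0.00107). Cd48 reached -0.37 (adjusted p = 0.0484), 12 of 20 alternative settings ended that call, and centring on the 75th percentile turned it to 0.01. Thy1 was 1.66-fold lower than in LSK (-0.73, adjusted p = 0.0128), and was not called after quantile normalization (-0.11, adjusted p = 0.678). Without the 4 arrays of mismatched sex, the 3 probe sets still called were those of Slamf1, and Thy1 gave -0.56 (adjusted p = 0.181).

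The families around the markers were read from lists, each gene by the probe set with the highest mean. Among the genes so measured, 6.92% were called higher and 29.2% lower in wild-type GMP against LSK, with a median of -0.18. These shares and the list counts below are on the deposited scale. Over all probe sets, 17.3% of the calls were higher on that scale and 57.7% after quantile normalization. For knockout against wild-type GMP 0.846% of these genes were called higher and 1.46% lower, with a median of 0.06. In that comparison 19.8% of all probe sets had an unadjusted p under 0.05.

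Of 13 measured Fc receptor genes and signalling chains, 4 were higher in GMP and 6 lower, with a median of -0.45. The 4 were Fcgr2b, Fcgr3 and the α and β chains of the IgE receptor of mast cells and basophils, Fcer1a (2.98, SE 0.43) and Ms4a2 (2.87, SE 0.29, adjusted p = 0.000253). Ms4a2 read 7.57, 7.84 and 8.81 in LSK, and 10.72, 10.91 and 11.20 in wild-type GMP. The genes that fell included Fcrla (-2.66) and Fcrl1 (-2.26), Fc receptor-like genes of B cells, and Fcgrt (-1.93), the neonatal Fc receptor that recycles IgG. B cell markers moved with them: 9 of 11 measured were called lower in wild-type GMP, with a median of -2.33 and a summed intensity of 18092 to 23225 in LSK and 3837 to 5634 in wild-type GMP. Fcer1g, the shared γ chain, had 0.33 (adjusted p = 0.172) and Fcgr4, another activating receptor, -0.56 (adjusted p = 0.173). Of the list, 0 genes were called in knockout against wild-type GMP by limma, and 4 had an unadjusted p under 0.05. Fcgr1, the high-affinity IgG receptor, had 1.09 (adjusted p = 0.142), and Inpp5d had -0.43 (adjusted p = 0.0725). A list of marker genes of mast cells, basophils and eosinophils, which itself holds Fcer1a and Ms4a2, was read beside them. Of 9 measured, 8 were called higher in wild-type GMP, both IgE receptor chains among them. The summed intensity of the list was 10320 to 15923 in LSK and 36350 to 44824 in wild-type GMP. The part of these cells and of B cells in the Fc receptor values was not tested.

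Of 10 measured genes of the SLAM family, 5 were lower in wild-type GMP and 0 higher, with a median of -1.11. The 5 included Slamf1 and Slamf6 (-2.21), Slamf7 (-1.76) and Cd244a (-1.51, adjusted p = 0.0023), which encodes the receptor for CD48. Sh2d1a, the adaptor SAP that SLAM receptors signal through, was at background on all wild-type GMP arrays and at least 2.66-fold lower than in LSK (adjusted p = 0.000365). In knockout against wild-type GMP the list held 1 called gene, Cd84, a self-binding SLAM receptor. Cd84 read 9.32, 9.26 and 9.16 in wild-type and 9.79, 9.70 and 9.86 in knockout GMP, a log2 fold change of 0.54 (SE 0.10, adjusted p = 0.0399). It was 0.45 to 0.59 in 20 alternative settings, of which 5 kept the call, and the adjusted p was 0.511 with the Actb ratio as a covariate. Slamf9 had 0.58 (adjusted p = 0.0743).

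The mucins related to CD34 and the selectins that bind such mucins gave 1 higher and 4 lower of 8 measured. Emcn, an endomucin of endothelium and stem cells, had -4.16 (SE 0.53), and Podxl, podocalyxin, had -2.54 (SE 0.49, adjusted p = 0.00499). Emcn read 9.15 to 9.80 in LSK and 4.88 to 6.05 in wild-type GMP. The selectin Sele was at background in LSK and at least 1.44-fold higher in wild-type GMP (adjusted p = 0.0217). Its mean of 4.93 in wild-type GMP lay within the highest control probe sets of the LSK arrays, 4.88 to 5.07, so it was near background in both groups. Selplg, the ligand that carries selectin binding on leukocytes, had -0.35 (adjusted p = 0.219) in knockout against wild-type GMP.

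The relatives of Ly6a gave 6 lower and 0 higher of 14 measured, with a median of -0.39. Plaur, the urokinase receptor, had -1.19 (SE 0.18, adjusted p = 0.00182) and Lynx1, a modulator of nicotinic receptors, -1.27 (adjusted p = 0.00163). Of the 14, 0 were called by limma in knockout against wild-type GMP, and 1 had an unadjusted p under 0.05.

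Other surface markers of stem and multipotent progenitors stood 11 lower and 0 higher of 19 measured in wild-type GMP. Procr, the protein C receptor EPCR, read 11.13, 10.96 and 10.42 in LSK and 6.55, 7.52 and 7.00 in wild-type GMP, a log2 fold change of -3.81 (SE 0.26, adjusted p = 4.6e-05). Esam, an adhesion molecule of endothelium and stem cells, had -3.98 (SE 0.23), and Robo4, a receptor for Slit ligands, -4.98 (SE 0.44). Of genes of granulocyte-monocyte progenitors, 11 of 15 were higher and 0 lower, with a median of 0.76: Elane, neutrophil elastase, had 1.18 and Cst7, a cysteine protease inhibitor, 1.75. Of the lineage antigens and Kit, 8 of 9 were lower in wild-type GMP, among them Cd4 (-2.07), Cd5 (-1.32) and Cd3e (-1.66). Late neutrophil genes were also lower in wild-type GMP in 9 of 10, with a summed intensity of 66729 to 88023 in LSK and 33033 to 43522 in wild-type GMP. In knockout against wild-type GMP, 0 genes of these 4 lists were called by limma, and 5, 0, 1 and 3 had an unadjusted p under 0.05.

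Because all mice received polyIC and some of these antigens respond to interferon, interferon-stimulated genes were read as well. Of 24 measured, 2 were higher and 16 lower in wild-type GMP against LSK, with a median of -1.18. Rtp4, a chaperone of receptors, had -3.76 (SE 0.31) and Oas2, a synthetase that senses double-stranded RNA, -2.54 (SE 0.14). In knockout against wild-type GMP, Oas1a rose by 0.69 (SE 0.12, adjusted p = 0.0383) and Usp18, a brake on interferon signalling, fell by 1.35 (SE 0.24, adjusted p = 0.0415). These were the 2 calls among 10 of the 24 genes with an unadjusted p under 0.05, and the median of the list was 0.28. With p adjusted over genes 3 were called higher. The summed intensity did not overlap, at 25089 to 26312 in wild-type and 30560 to 33914 in knockout GMP. The call of Oas1a was kept in 5 and that of Usp18 in 4 of 20 alternative settings, and a fit that held the Actb ratio gave adjusted p of 0.455 and 0.238. The part of interferon in the marker values was not tested.

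**Figure D3:**
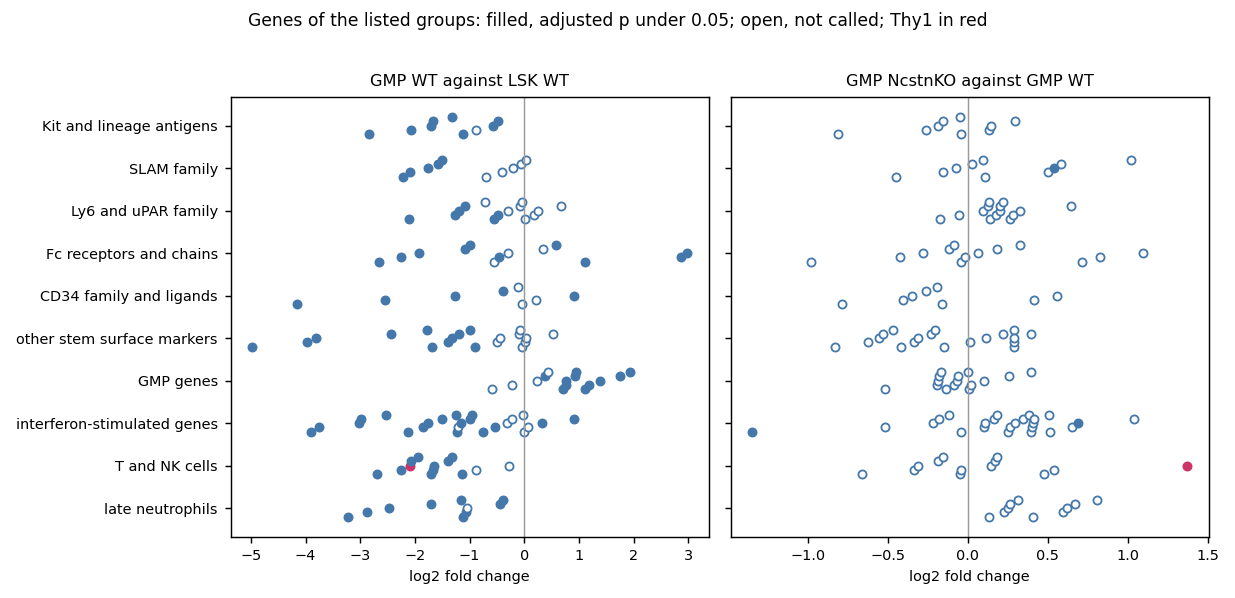
Log2 fold change of listed genes in wild-type GMP against LSK (left) and knockout against wild-type GMP (right). Filled points have an adjusted p under 0.05, and Thy1 is in red within its list. The lists drawn are the marker families, stem and GMP genes, lineage antigens with Kit, interferon-stimulated genes, T and NK cells and late neutrophils. The erythroid, macrophage and other cell type lists are not drawn. On the right Thy1 at 1.37 lies apart from the other T and NK cell genes, which run from -0.66 to 0.54.

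The genes most like each marker over the 9 arrays, by Pearson's r of log2 intensity among 5769 genes with a range of at least 1, were taken as a description, since groups and scaling are shared by all genes. Thy1 was followed most closely by Trmt10a (r = 0.996), S100a6 (0.974) and Ttc30b (0.969). Slamf1 was followed by H2-Ob (0.994), Nrgn (0.991) and Mast4 (0.990). Fcgr3 was followed by Igsf6 (0.994), Cldn15 (0.989) and Msrb1 (0.987), and Fcgr2b by Naip2 (0.993), Gpc3 (0.990) and Rab7b (0.988). For Cd34 the nearest were Pou2af1 (0.990), Tnik (0.987) and Pik3ca (0.987). Cd48, which varied least, had the lowest values of r, with Wdr5b (0.940), Bod1l (0.935) and Tcf4 (0.919).

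**Figure D4:**
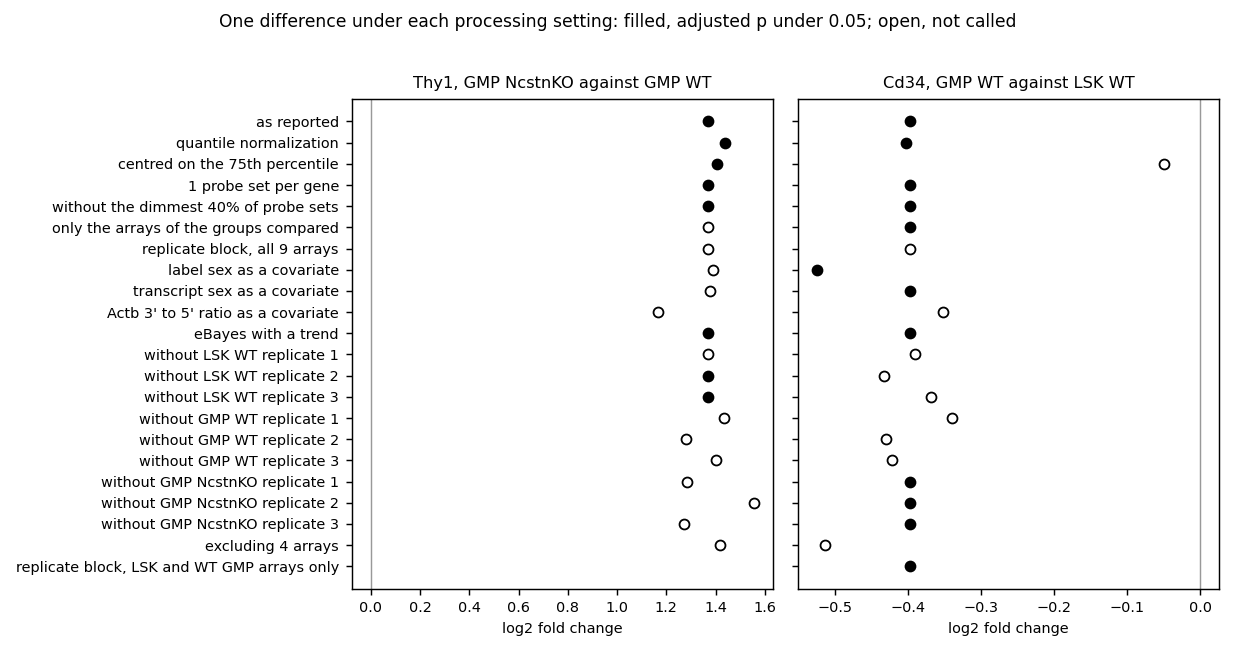
Log2 fold change of Thy1 in knockout against wild-type GMP (left) and of Cd34 in wild-type GMP against LSK (right) under each processing setting, filled where the adjusted p is under 0.05; settings without a point could not be run for that comparison. Thy1 stays between 1.16 and 1.55, and Cd34 moves to -0.05 when arrays are centred on the 75th percentile.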

How the data were processed

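Each array measured RNA of sorted mouse bone marrow cells. The authors deposited linear intensities per probe set. The submitters' processing notes name RMA, with no version, and whether it was run on the 9 arrays at once is not given in the sources used here. The deposited medians differed by gate, at 98.3 to 103 on LSK arrays and 65.3 to 68.6 on GMP arrays. In the comparisons with LSK, scale and gate therefore cannot be told apart. From the deposited intensities log2 was taken here, with no further scaling. Gene names came from GEO's platform annotation, and the files name no genome build. The 64 control probe sets were left out, and the other 45037 entered 1 linear model of the 3 group means (limma 3.58.1, R 4.3.3, empirical Bayes, 2-sided, 6 residual degrees of freedom); every adjusted p is from limma. With 3 arrays per group, precision is limited by that number. The background limit of an array is the 95th percentile of its 27 unspiked B. subtilis control probe sets. The markers, lists, tests and rules for naming genes were chosen with earlier results of these data known. Outside the cell type lists, up to 4 genes per list with the smallest p in wild-type GMP against LSK were named. Up to 2 were named by knockout against wild-type GMP. From a cell type list the highest member was named. Fcer1a, Fcer1g, Fcgr4 and Ncr1 fall outside these rules and were named after their values were seen. List genes with no probe set of their own symbol were not analysed here. The fit was tested on simulated data. As the labels do not say whether each sample came from its own mouse, p-values measure only the spread between these arrays. Deviations of same-numbered LSK and wild-type GMP arrays from their group means correlated at 0.247, 0.247 and 0.296. This pairing comes from the data and not the labels, and the main fit does not use it. A replicate block entered only alternative fits. Knockout arrays did not pair (-0.03 to 0.04), so a block over all 9 arrays also joins arrays with no sign of pairing. Alternatives covered scaling, probe set choice, a filter on dim probe sets, arrays in the fit, a replicate block, sex, RNA quality, a variance trend and leaving out arrays.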

Additional observations from a re-analysis of the deposited data

How the results depend on the processing

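For wild-type GMP against LSK, 10 of the 12 probe sets were called, and 9 to 10 with 1 array left out; for knockout GMP against LSK 11 were called, and 10 to 11. For knockout against wild-type GMP the single call, Thy1, was 0 with only the arrays of the groups compared, with a replicate block in all 9 arrays, with label sex, transcript sex or the Actb ratio as a covariate, and 0 to 1 with 1 array left out. Without the 4 arrays of mismatched sex, an alternative chosen after seeing the data, the calls were 3, 0 and 3 in the order wild-type GMP against LSK, knockout against wild-type GMP, knockout GMP against LSK.

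Over all probe sets, 790 were called in knockout against wild-type GMP. The count was 497 after quantile normalization, 1037 of genes with 1 probe set per gene, 1367 without the dimmest 40% of probe sets, 1415 with a variance trend, 2 with only the arrays compared, 9 with the replicate block, 1 with label sex, 4 with transcript sex, 0 with the Actb ratio (where limma gave no call), 0 without the 4 arrays, and 1 to 285 with 1 array left out. For wild-type GMP against LSK 15710 became 10130 with the Actb ratio and 3323 without the 4 arrays, and for knockout GMP against LSK 19575 became 6315 without them. The share of calls that were higher in wild-type GMP against LSK was 17.3% on the deposited scale, 57.7% with quantile normalization and 67.6% with the 75th percentile centred; it was 34.4%, 40.4% and 47.1% for knockout against wild-type GMP and 26.2%, 57.7% and 69.0% for knockout GMP against LSK. The replicate block in the LSK and wild-type GMP arrays alone, also chosen after seeing the data, changed the call of 0 of the 12 probe sets, and Cd34 had an adjusted p of 0.0445; in all 9 arrays Cd34 had 0.0621 and Cd48 in knockout GMP against LSK 0.0672.

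Directions that turned all belonged to values that were not called, except Cd48 in knockout GMP against LSK. Centring on the 75th percentile gave Cd48 0.135 in wild-type and 0.0124 in knockout GMP against LSK, and Fcgr2b 1435477_s_at 0.0141 in knockout against wild-type GMP. In that last comparison label sex gave -0.0305, -0.0821 and -0.0567 for Fcgr2b 1435476_a_at, 1451941_a_at and 1455332_x_at, -0.101 for Fcgr3 and 0.0405 for Slamf1 1425571_at. Transcript sex gave 0.0205 for Fcgr2b 1435477_s_at and 0.0144 for Slamf1 1425571_at, and the Actb ratio 0.186 for Fcgr2b 1435477_s_at. Excluding the 4 arrays gave 0.223 for Cd48, and 0.318 and 0.259 for Slamf1 1425570_at and 1425571_at. With 1 array left out, Fcgr2b 1435477_s_at ran from -0.077 to 0.0383, 1451941_a_at from -0.043 to 0.11, 1455332_x_at from -0.0465 to 0.0929 and Slamf1 1425571_at from -0.162 to 0.0563. The cause was not tested. Of 102 counts over the lists, 7 moved by more than 1.5 times, or to or from 0, when p was adjusted over genes. Fcgr2b 1447622_at, below background on all arrays, has no fold and was left out of these. Signal near background limits Slamf1 1425571_at, whose values above have no firm order.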

Other observations

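On mouse chromosome 1 the order of the genes was Fcgr2b, Fcgr3, Cd48, Slamf1, Ncstn and Cd34. So 4 of the markers followed here lie on the same side of the deleted gene. This stretch was chosen after its values were seen. Of 39 coding genes from Fcgr2b to Ncstn, 33 were measured, and in knockout against wild-type GMP 3 were called higher and 1 lower by limma, beside 0.846% and 1.46% of all measured genes. The gene that fell was Ncstn itself (-1.50, adjusted p = 0.00132). The genes that rose were Cd84 (0.54, adjusted p = 0.0399), Usf1, a basic helix-loop-helix transcription factor (0.76, adjusted p = 0.0443), and Tomm40l, named for its likeness to a mitochondrial import channel (0.55, adjusted p = 0.0443). Of 20 alternative settings, 5 kept the call of Cd84, 4 that of Usf1, 4 that of Tomm40l and 18 that of Ncstn. With the Actb ratio as a covariate none of them was called, and the adjusted p was 0.511, 0.562, 0.57 and 0.184 in that order. In wild-type GMP against LSK, 4 of the 33 were called higher and 13 lower, beside 6.92% and 29.2% of all measured genes. The steepest fall was that of F11r, a junctional adhesion molecule (-3.70, adjusted p = 8.2e-05).

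The 2 Ncstn probe sets differed: 1444532_at read 6.13 to 6.81 in wild-type and 6.29 to 6.68 in knockout GMP, while 1418570_at fell on all 3 knockout arrays.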
